A study of Arabidopsis thaliana with 8 samples.

Results

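Plants hold their internal phosphate (Pi) steady by matching uptake in the root, loading into the xylem and storage in the vacuole to the supply outside. The genes described here are 9 genes of Arabidopsis thaliana that act in this control: the ubiquitin pathway genes PHO2 and NLA, the non-coding RNA mimics IPS1 and AT4, the Pi exporter genes PHO1 and PHO1;H1, the transporter traffic gene PHF1, the vacuolar Pi transporter gene PHT5;1 and the glycerol-3-phosphate permease gene G3Pp1. They were chosen by locus identifier and not by a cut on their counts, though earlier results of these data were known. They are 9 of the 40246 features in the count table: AT2G33770, AT1G02860, AT3G09922, AT5G03545, AT3G23430, AT1G68740, AT3G52190, AT1G63010 and AT3G47420 in the order just given. All 9 passed the filter on low counts, which left 20262 features for testing.

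When Pi is scarce, the transcription factor PHR1 activates genes of the Pi starvation response, among them those of the microRNAs miR399 and miR827. miR399 guides the cutting of the transcript of PHO2, a ubiquitin-conjugating enzyme that marks PHO1 and PHT1 transporter proteins for breakdown. miR827 does the same for the transcript of NLA, a RING-type ubiquitin ligase that acts on PHT1 transporters. IPS1 and AT4 carry a site that miR399 binds but cannot cut, because the RNA bulges out at the cutting position, so that these transcripts hold miR399 away from PHO2.

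The libraries came from roots of 7-day-old Columbia-0 (Col-0) seedlings. The groups were bzr1-D at low Pi, bzr1-D at adequate Pi, wild type at low Pi and wild type at adequate Pi, with 2 libraries in each, called Exp 1 and Exp 2 in the labels and described as biological replicates. Low Pi was 1 µM and adequate Pi 0.625 mM, given for 24 h after transfer at day 6, and all plants had grown until then on half-strength Murashige and Skoog medium with 0.2% sucrose at 22 °C. bzr1-D is a dominant allele that stabilises BZR1, a transcription factor of the brassinosteroid pathway, and the plants carry it in all tissues and from germination on, so that the genotypes had also differed before the transfer.

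Total counts lay between 15947895 and 22150569 per library, so that 1 CPM (the count scaled to library size with TMM factors) rested on at least 15.9 counts. The 9 root marker genes summed to between 7490 and 10000 CPM in the 8 libraries, and none of them was at 0 in both libraries of a group. Most of the sum was PYK10, with 6960 to 9360 CPM. WOX5 had only 1.3 to 1.98 CPM and NRT2.1 0.055 to 0.936 CPM. The 11 leaf and shoot markers summed to 84.4 and 80.0 CPM in bzr1-D at low Pi and 89.3 and 80.0 CPM in bzr1-D at adequate Pi. In wild type their sums were 50.9 and 82.4 CPM (low Pi) and 56.4 and 46.0 CPM (adequate Pi), and LHCA4 was at 0 in every library. The 4 markers of the root stele, where PHO1 and PHO2 are known to act, summed to between 183 and 233 CPM. The 4 markers of touch and handling summed to 121 and 124 CPM in bzr1-D at low Pi and 64.0 and 95.9 CPM at adequate Pi. The wild-type sums were 159 and 458 CPM at low Pi and 50.2 and 130 CPM at adequate Pi. In each such pair, here and below, the first value is Exp 1 and the second Exp 2.

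The sequences that tie these genes to the microRNAs are shown first, read from the RefSeq copy of the TAIR10.1 genome. The miR399 forms listed here share 1 seed (bases 2 to 8, in capitals) and, apart from the identical miR399b and miR399c-3p, differ after it, and miR827 has another seed. miR399c-5p, from the other arm of its hairpin, has a different seed and is not listed.
miR399a: uGCCAAAGgagauuugcccug
miR399b: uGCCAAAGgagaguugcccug
miR399c-3p: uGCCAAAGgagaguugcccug
miR399d: uGCCAAAGgagauuugccccg
miR399e: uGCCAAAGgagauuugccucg
miR399f: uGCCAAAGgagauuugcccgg
miR827: uUAGAUGAccaucaacaaacu

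A search of the longest annotated transcript of each of 31346 genes for sites opposite these microRNAs, allowing a penalty of at most 4 (1 for a mismatch, 0.5 for a G:U pair), found 5 miR399 sites in PHO2, all on the minus strand of chromosome 2 and 5′ of the coding sequence. Capitals mark bases that pair with the best-matching miR399 form, G:U pairs included, and small letters those that do not.
PHO2 site at chr2:14282106-14282126: TAGGGCAAATCTTCTTTGGCA
PHO2 site at chr2:14281973-14281993: TAGGGCAtATCTCCTTTGGCA
PHO2 site at chr2:14281884-14281904: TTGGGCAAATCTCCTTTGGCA
PHO2 site at chr2:14281827-14281847: TCGaGCAAATCTCCTTTGGCA
PHO2 site at chr2:14281770-14281790: TAGaGCAAATCTCCTTTGGCA

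The RNA mimics held no ungapped site under this limit. With a loop of 3 bases in the transcript opposite the junction of microRNA bases 10 and 11, where a microRNA guides cutting, both held 1 site on the plus strand, with 20 of 21 microRNA bases paired and the loop and the unpaired base in small letters. Both lay within the short reading frame that TAIR10.1 annotates in these RNAs.
IPS1 site at chr3:3051224-3051247: TtGGGCAACTTctaTCCTTTGGCA
AT4 site at chr5:895149-895172: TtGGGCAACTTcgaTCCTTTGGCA

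For miR827, the ungapped search found a site 5′ of the coding sequence in NLA, on the plus strand, with 20 of 21 bases paired, and one in PHT5;1, on the minus strand, with 18 of 21 paired. No ungapped site for either family was found in PHO1, PHO1;H1, PHF1 or G3Pp1.
NLA site at chr1:635401-635421: tGTTTGTTGATGGTCATCTAA
PHT5;1 site at chr1:23352374-23352394: AtTacGTTGATGGTCATCTAA

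Of all genes searched, 0.297% held an ungapped miR399 site, 0.246% a miR399 site with the loop and 0.166% an ungapped miR827 site. A match is a statement about letters and not about cutting or binding in these roots. The counts bear little on the microRNAs themselves, since the libraries were made from polyadenylated RNA, which leaves out mature microRNAs. The genes MIR399A to MIR399F held 1 count in all over 8 libraries, a MIR399B count in bzr1-D at low Pi (Exp 1). MIR827A held 5 and 1 counts in bzr1-D at low Pi and 1 and 0 at adequate Pi. In wild type it held 2 and 5 counts at low Pi and 0 and 0 at adequate Pi.

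Per kilobase of exon, the transcripts spanned a wide range of levels. Exon lengths were those of TAIR10.1. Only NLA and IPS1 have the same ends there as in the count table. The other genes reach farther in TAIR10.1, AT4 (936 bases there) at both ends, so that their per-length levels may be too low. PHO1 was at the top with a median of 190.0 CPM per kb over the 8 libraries (165 to 240.0) and PHO2 second with 98.8 (73.6 to 117). These ranges did not overlap, and the per-length level of PHO1 was between 1.77 and 2.33 times that of PHO2 in each library. AT4 followed with a median of 82.4 CPM per kb, and its range of 25.7 to 344 overlapped those of both its neighbours in the order. Because its length in TAIR10.1 exceeds the span that was counted, the order of AT4 and PHO2 is not settled. PHT5;1 and PHF1 each had a median of 26.7 CPM per kb, G3Pp1 18.3, NLA 15.0 and PHO1;H1 8.76, and among these each overlapped the next in its range. IPS1 was lowest by its median of 1.43 CPM per kb, but ran from 0.0934 to 31.5. The mimics thus differed in level: by these lengths AT4 was between 9.16 and 276 times as high as IPS1 in the 8 libraries. Over the shorter counted span of AT4 these ratios would be higher. The ratio of 276 and the lowest IPS1 level both came from wild type at adequate Pi in Exp 1, where IPS1 had 1 count. The next ratio, 149, came from bzr1-D at adequate Pi in Exp 2, where IPS1 had 4 counts.

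**Figure D1:**
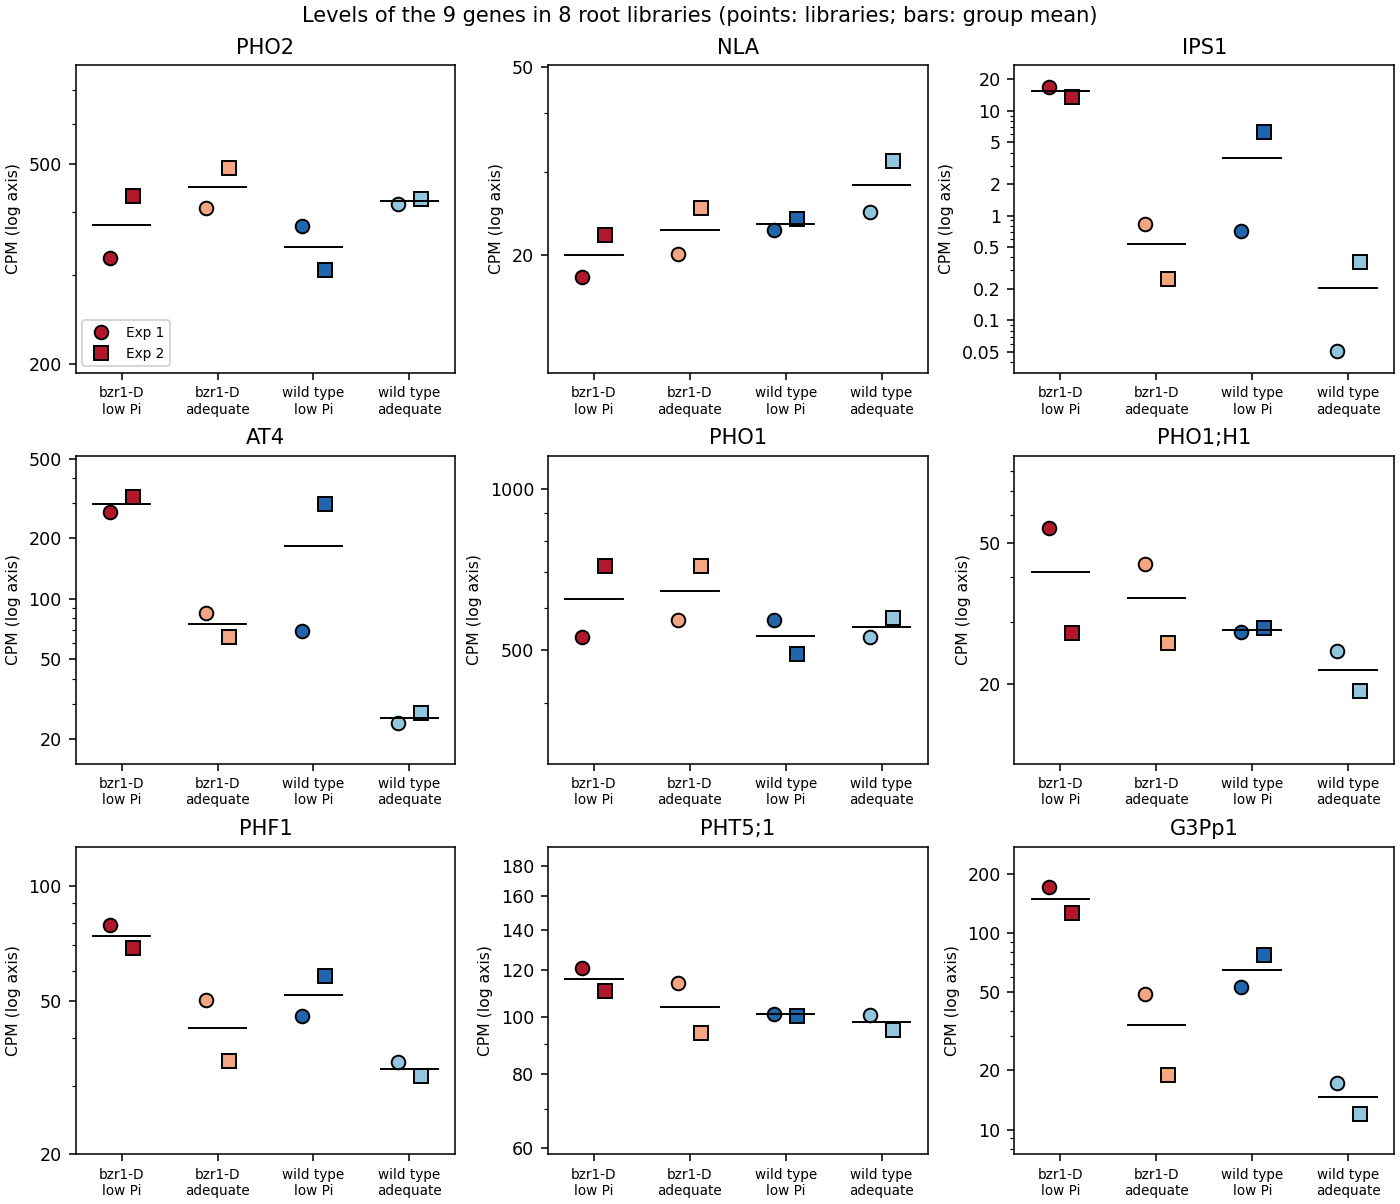
Levels of the 9 genes in CPM, scaled by TMM, on a log axis that differs between panels, with 1 point per library (circles Exp 1, squares Exp 2) and a bar at the group mean. IPS1, AT4, PHF1 and G3Pp1 were higher at low Pi than at adequate Pi in both genotypes, and wild type at low Pi was split between 69.2 and 298 CPM for AT4.

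The first comparison asked how the genes stood after 24 h at low Pi, within each genotype. IPS1, AT4, G3Pp1 and PHF1 were higher at low Pi in each matched pair of libraries, and IPS1 had the largest fold change. IPS1 (chr3:3050989-3051530, plus strand) had 17.1 and 13.7 CPM (334 and 242 counts) in bzr1-D at low Pi, against 0.832 and 0.248 CPM (16 and 4 counts) in bzr1-D at adequate Pi. Wild-type roots had 0.715 and 6.32 CPM (13 and 117 counts) at low Pi, against 0.0506 and 0.36 CPM (1 and 8 counts) at adequate Pi. Low Pi was above adequate Pi in both genotypes without overlap, but the wild-type library at low Pi in Exp 1 lay below the bzr1-D library at adequate Pi in Exp 1. In bulk roots, here and below, fewer cells of a type and less RNA per cell cannot be told apart. The fitted log2 fold change was 4.77 ± 0.98 (SE) in bzr1-D and 4.01 ± 1.16 in wild type. As a ratio of summed counts, IPS1 was 26.7 times as high at low Pi in bzr1-D (exact 95% counting interval 17.1 to 44.0) and 16.7 times in wild type (8.55 to 37.4). These intervals cover counting error only. With 1 library left out, the fitted log2 value of IPS1 in wild type was 1.71 without the Exp 2 library at low Pi (1.54 with the replicate block, which takes the Exp number as a term) and 5.95 without the Exp 2 library at adequate Pi. In bzr1-D it ran from 3.75 to 6.36 over the left-out libraries, with and without the block.

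AT4 (chr5:894706-895400, plus strand) had 269.5 and 322 CPM in bzr1-D at low Pi, against 85.0 and 64.1 CPM at adequate Pi. The wild-type libraries had 69.2 and 298 CPM at low Pi, against 24.1 and 26.9 CPM at adequate Pi. Neither genotype overlapped between Pi supplies, and the wild-type libraries at low Pi were farther apart than those of any other group: Exp 1 was near bzr1-D at adequate Pi, and Exp 2 near bzr1-D at low Pi. The log2 fold change was 1.99 ± 0.57 (SE) in bzr1-D and 2.85 ± 0.60 in wild type, and 1.52 within Exp 1 and 3.47 within Exp 2 of wild type. Within Exp 1 and Exp 2 of bzr1-D it was 1.66 and 2.33. The touch and handling markers were also higher at low Pi in every matched pair. They stood at 121 and 124 CPM at low Pi against 64.0 and 95.9 CPM at adequate Pi in bzr1-D, and at 159 and 458 CPM at low Pi against 50.2 and 130 CPM at adequate Pi in wild type. Their median log2 fold change was 0.35 in bzr1-D and 1.63 in wild type, with 4 of 4 above 0 in each, and DESeq2 called JAZ10 in wild type (2.07 ± 0.51, SE, adjusted p = 0.046). Their part in the Pi responses of the 9 genes was not tested.

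G3Pp1 (chr3:17472342-17475258, minus strand), of the family of glycerol-3-phosphate permeases, had 173 and 127 CPM in bzr1-D at low Pi, against 49.3 and 19.1 CPM at adequate Pi. In wild type the values were 53.1 and 77.5 CPM at low Pi, against 17.3 and 11.95 CPM at adequate Pi. Its log2 fold change was nearly the same in both genotypes, 2.13 ± 0.44 (SE) in bzr1-D and 2.16 ± 0.45 in wild type. It was the only one of the 9 genes whose 4 libraries at low Pi all lay above its 4 libraries at adequate Pi, which 0.888% of all features tested did. DESeq2 called it higher at low Pi in bzr1-D (adjusted p = 0.0002) and in wild type (adjusted p = 0.00013), and it was the only one of the 9 genes that DESeq2 without a block called within a genotype. In those DESeq2 comparisons 0.0926% of features in bzr1-D and 0.112% in wild type were called, all of them higher. In edgeR the adjusted p was 1.0 in both genotypes. DESeq2 with the Exp number as replicate block called G3Pp1 in bzr1-D (adjusted p = 0.023, beside 0.272% of features) and in wild type (0.017, beside 0.305%), and PHF1 in bzr1-D (0.01).

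PHF1 (chr3:19353972-19357074, minus strand) encodes an endoplasmic reticulum protein that PHT1 transporters need to reach the plasma membrane. It had 78.9 and 68.6 CPM in bzr1-D at low Pi, against 50.3 and 34.8 CPM at adequate Pi. Wild type had 45.8 and 58.1 CPM at low Pi, against 34.7 and 31.9 CPM at adequate Pi. The separation was smaller than for the mimics and G3Pp1 but of 1 direction in all 4 pairs of libraries matched by genotype and Exp number, with log2 ratios of 0.65 and 0.98 in bzr1-D and 0.40 and 0.87 in wild type. The log2 fold change was 0.79 ± 0.20 (SE) in bzr1-D and 0.64 ± 0.20 in wild type.

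PHO2 (chr2:14277558-14283040, minus strand) had 325 and 431 CPM in bzr1-D at low Pi, against 409 and 490.2 CPM at adequate Pi. The wild-type values were 376 and 308 CPM at low Pi, against 416 and 426 CPM at adequate Pi. Each low Pi library was below its matched adequate Pi library, with log2 ratios of -0.33 and -0.19 in bzr1-D and -0.15 and -0.47 in wild type, but in bzr1-D the groups overlapped. The log2 fold change was -0.25 ± 0.19 (SE) in bzr1-D and -0.30 ± 0.19 in wild type. PHO2 thus kept between 0.72 and 0.90 of its matched adequate Pi level in these 4 pairs, in the same libraries in which IPS1 and AT4 were higher.

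NLA (chr1:635144-637262, plus strand), the other ubiquitin pathway gene, had 18.0 and 22.0 CPM in bzr1-D at low Pi, against 20.1 and 25.1 CPM at adequate Pi. Wild-type roots had 22.6 and 23.8 CPM at low Pi, against 24.6 and 31.55 CPM at adequate Pi. As for PHO2, all 4 matched pairs were lower at low Pi and the groups overlapped in bzr1-D. The log2 fold change was -0.17 ± 0.18 (SE) in bzr1-D and -0.28 ± 0.18 in wild type. NLA shares 49 bases with AT1G02870 on the other strand, which had between 511 and 763 counts per library. Whether the counting used strand is unknown here, so reads in the shared bases cannot be assigned to one of them.

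The exporters did not separate by Pi supply in the same way. PHO1 (chr3:8387508-8393296, minus strand), which loads Pi into the xylem, had 529 and 719 CPM in bzr1-D at low Pi, against 569 and 718.5 CPM at adequate Pi. Wild type had 569.9 and 493 CPM at low Pi, against 529 and 574 CPM at adequate Pi. Of the 4 matched pairs 2 were higher and 2 lower at low Pi, and the log2 fold change was -0.05 ± 0.20 (SE) in each genotype.

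PHO1;H1 (chr1:25812449-25816657, minus strand), a PHO1 homologue that also carries Pi to the xylem, had 55.0 and 27.9 CPM in bzr1-D at low Pi, against 43.7 and 26.1 CPM at adequate Pi. The wild-type libraries had 28.0 and 28.8 CPM at low Pi, against 24.8 and 19.1 CPM at adequate Pi. The bzr1-D groups overlapped, with the Exp 1 library of each far above its Exp 2 library, while in wild type low Pi was above adequate Pi. The log2 fold change was 0.25 ± 0.35 (SE) in bzr1-D and 0.37 ± 0.35 in wild type.

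PHT5;1 (chr1:23347561-23352697, minus strand), which moves Pi into the vacuole, had 121 and 111 CPM in bzr1-D at low Pi, against 114 and 93.8 CPM at adequate Pi. Wild-type roots had 101 and 100.2 CPM at low Pi, against 100.6 and 95.2 CPM at adequate Pi. Of the 9 genes it had the narrowest range as a ratio, from 93.8 to 121 CPM in all 8 libraries. The log2 fold change was 0.15 ± 0.13 (SE) in bzr1-D and 0.04 ± 0.13 in wild type.

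**Figure D2:**
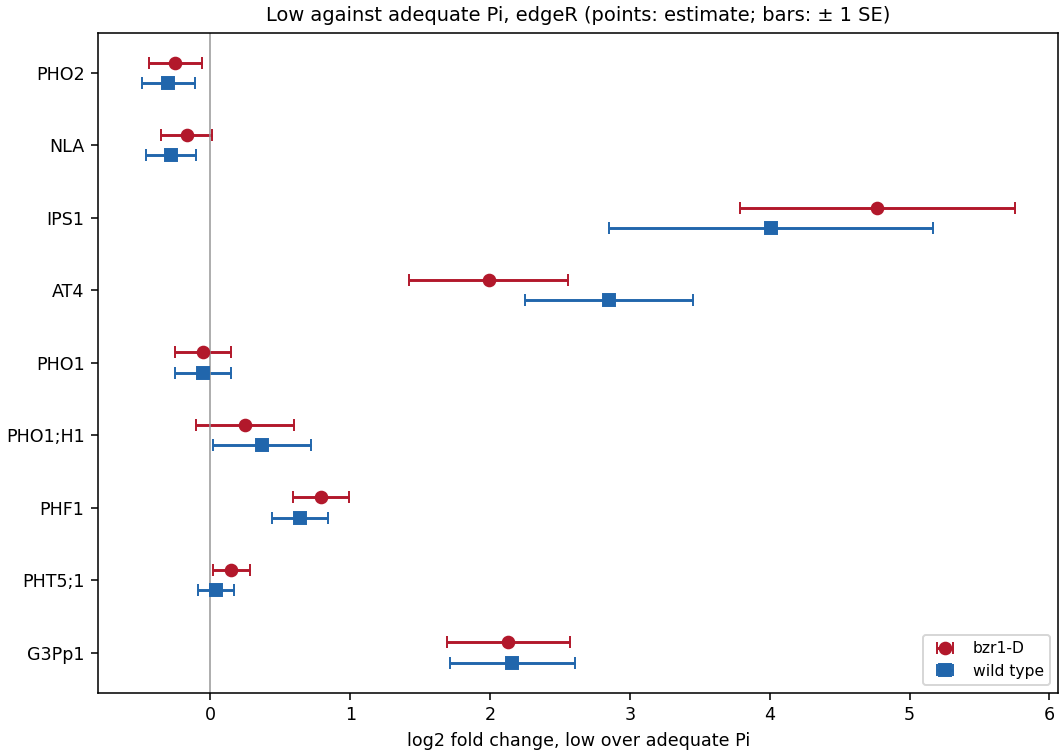
Log2 fold change of the 9 genes at low over adequate Pi, fitted by edgeR, with bars of 1 SE, for bzr1-D (circles, upper) and wild type (squares, lower). IPS1, AT4, G3Pp1 and PHF1 lay above 0 in both genotypes by more than 3 SE, and the other genes lay within 2 SE of 0.

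Against all features, edgeR (quasi-likelihood test, p adjusted by Benjamini-Hochberg, called under 0.05) called 0 of the 9 genes in either genotype, and 0.0% of all features. With the replicate block it called 0 of the 9 as well, beside 0.0197% of features in bzr1-D and 0.0839% in wild type. At an unadjusted p under 0.05 stood 4 of the 9 genes in bzr1-D and 4 in wild type, IPS1, AT4, PHF1 and G3Pp1 in both cases, beside 1.25% of all features in bzr1-D and 1.63% in wild type. The median log2 fold change of the 9 genes was 0.25 in bzr1-D and 0.37 in wild type, beside 0.003 and -0.003 over all features. By overlap alone, IPS1, AT4, PHF1 and G3Pp1 were higher at low Pi in bzr1-D, beside 9.92% of all features, and none was lower, beside 9.72%. In wild type IPS1, AT4, PHO1;H1, PHF1 and G3Pp1 were higher, beside 11.9%, and PHO2 and NLA lower, beside 10.7%.

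With the genotypes averaged, the log2 fold change was 4.39 ± 0.75 (SE) for IPS1, 2.42 ± 0.41 for AT4, 2.14 ± 0.31 for G3Pp1 and 0.72 ± 0.14 for PHF1. It was -0.28 ± 0.13 for PHO2, -0.23 ± 0.13 for NLA, 0.31 ± 0.25 for PHO1;H1, 0.10 ± 0.09 for PHT5;1 and -0.05 ± 0.14 for PHO1. edgeR called none of the 9 (the lowest adjusted p was 0.34, for G3Pp1) and 0.0% of all features, with IPS1, AT4, PHF1 and G3Pp1 at an unadjusted p under 0.05 beside 2.18% of features, whereas DESeq2 called G3Pp1 (adjusted p = 5.9e-11), AT4 (0.0014), IPS1 (0.0022) and PHF1 (0.0091) higher at low Pi. In that DESeq2 comparison 0.213% of features were called, all higher. With the block DESeq2 called the same 4 genes (adjusted p at most 0.0046), beside 0.496% of features. Over the 4 matched pairs, IPS1, AT4, PHO1;H1, PHF1, PHT5;1 and G3Pp1 were higher in each, as were 9.33% of all features, and PHO2 and NLA were lower in each, as were 7.29%.

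**Figure D3:**
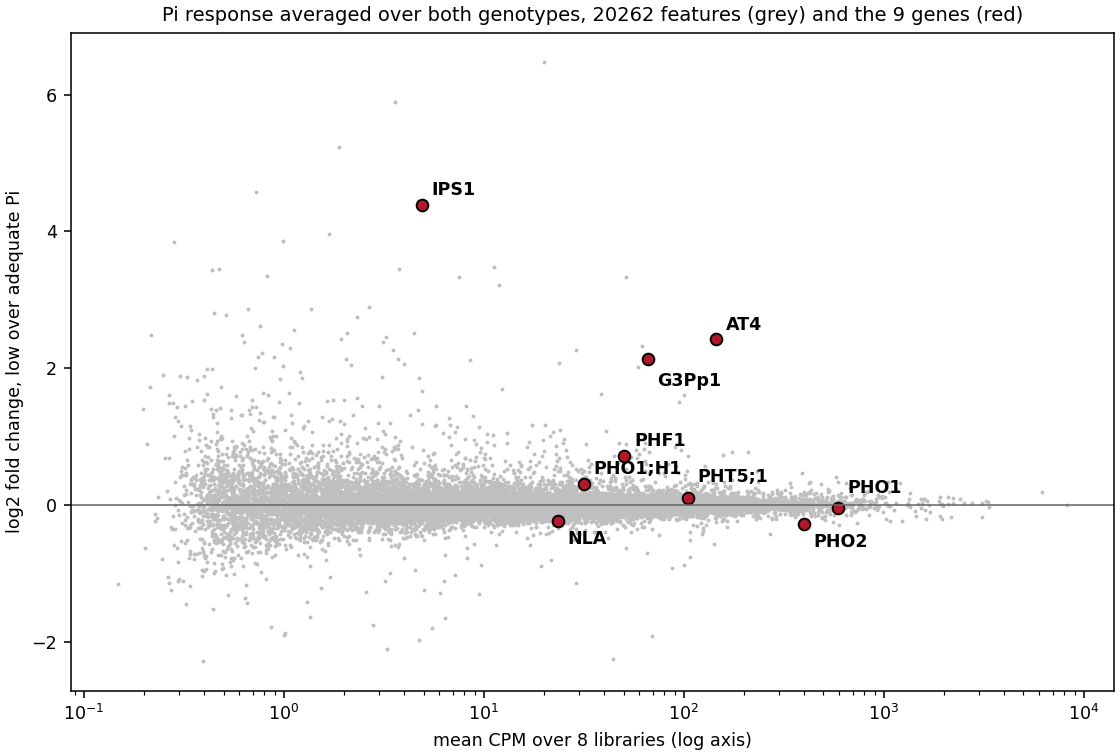
Log2 fold change at low over adequate Pi averaged over both genotypes (edgeR) against the mean CPM over 8 libraries on a log axis, for 20262 features (grey) and the 9 genes (red). AT4 (2.42) and G3Pp1 (2.14) lay above the bulk of features of like level, whereas PHO1 (-0.05) and PHT5;1 (0.10) lay among them.

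The edgeR calls depended on which library was left out. Without wild type at low Pi in Exp 1 and with no block, edgeR called AT4 higher at low Pi in wild type (log2 fold change 3.55, adjusted p = 0.021, beside 0.0486% of features). Averaged over the genotypes, it then called AT4 (2.77, adjusted p = 0.0051) and IPS1 (4.81, adjusted p = 0.028), beside 0.0923%. No other left-out library gave a call of any of the 9 genes in these Pi comparisons, in the fit without a block.

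With the Exp number as replicate block, edgeR called none of the 9 genes in any comparison over all 8 libraries. The adjusted p of the averaged Pi response, in which 0.148% of features were called, was 0.18 for PHF1, 0.42 for G3Pp1, 0.58 for IPS1 and 0.61 for AT4. With the block and without either wild-type library at low Pi, IPS1, AT4 and PHF1 were called higher at low Pi in bzr1-D (adjusted p at most 0.0027 by edgeR), beside 0.461% of features without Exp 1 and 0.487% without Exp 2. In wild type these 3 genes were called with the block and without Exp 1 of that group (adjusted p at most 0.0027), beside 1.2% of features. With the block and without the wild-type library at low Pi of Exp 1, the averaged response of IPS1 (4.89, adjusted p = 0.00011), AT4 (2.76, adjusted p = 3.2e-05), PHF1 (0.88, adjusted p = 4.6e-05) and PHO2 (-0.41, adjusted p = 0.03) was called by edgeR, beside 1.68% of features. Without Exp 2 of that group the averaged response of AT4 (1.71, adjusted p = 0.0025) and PHF1 (0.56, adjusted p = 0.0068) was called, beside 0.263%. PHF1 was also called without bzr1-D at adequate Pi in Exp 1 (0.86, adjusted p = 0.044), beside 0.102%.

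**Figure D4:**
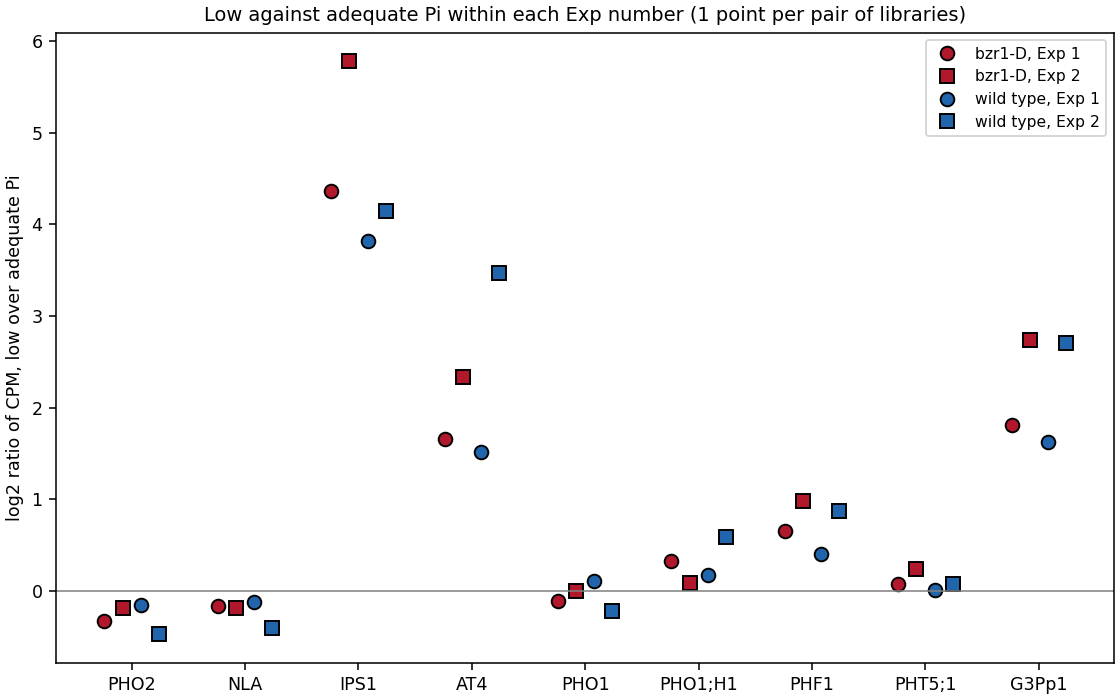
Log2 ratio of CPM at low over adequate Pi within each Exp number, 1 point for each pair of libraries, for bzr1-D (red) and wild type (blue), circles Exp 1 and squares Exp 2. For AT4 the wild-type pairs stood at 1.52 and 3.47, with both bzr1-D pairs, 1.66 and 2.33, between them.

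The second comparison asked how bzr1-D roots differed from wild type at the same Pi supply. At adequate Pi, AT4 and G3Pp1 were apart. AT4 stood at 85.0 and 64.1 CPM in bzr1-D and at 24.1 and 26.9 CPM in wild type, a log2 fold change of 1.55 ± 0.57 (SE) with adjusted p = 0.39 by edgeR's quasi-likelihood test. G3Pp1 stood at 49.3 and 19.1 CPM in bzr1-D and at 17.3 and 11.95 CPM in wild type (1.23 ± 0.44, adjusted p = 0.36). The wild-type libraries at low Pi enter this fit as well. Without Exp 1 of wild type at low Pi, AT4 was called higher in bzr1-D at adequate Pi (log2 fold change 1.54, adjusted p = 0.017 by edgeR, beside 1.51% of features), and also without Exp 2 of that group (1.54, adjusted p = 0.016, beside 1.52%). With the block as well, AT4 (adjusted p = 0.00069 and 0.0011) and PHO1;H1 (0.62 and 0.63, adjusted p = 0.014 and 0.01) were called without Exp 1 and without Exp 2, beside 8.98% and 8.89% of features. PHO1;H1 was higher without overlap (0.67 ± 0.35), with 43.7 and 26.1 CPM in bzr1-D and 24.8 and 19.1 CPM in wild type, and so was PHF1 (0.36 ± 0.20). Beside these 4 genes, 15.8% of all features were higher without overlap. The log2 fold change was 0.22 ± 0.20 for PHO1, 0.09 ± 0.19 for PHO2, 0.09 ± 0.13 for PHT5;1 and -0.32 ± 0.18 for NLA, and the groups of these 4 genes overlapped. IPS1 was too low for a comparison here, with 16 and 4 counts in bzr1-D and 1 and 8 counts in wild type (1.36 ± 1.47).

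At low Pi, IPS1 was higher in bzr1-D than in wild type in both Exp numbers, but by very different amounts. Its count ratio was 22.9 in Exp 1 (exact 95% counting interval 13.2 to 43.5) and 2.05 in Exp 2 (1.64 to 2.58). The fitted log2 fold change was 2.12 ± 0.79 (SE, adjusted p = 0.36 by edgeR's quasi-likelihood test). G3Pp1 was higher in bzr1-D by 1.70 in Exp 1 and 0.71 in Exp 2 on the log2 scale (1.2 ± 0.43, adjusted p = 0.32), and PHF1 by 0.79 and 0.24 (0.51 ± 0.20, adjusted p = 0.39). AT4 had ratios of 3.89 in Exp 1 and 1.08 in Exp 2, and its groups overlapped (0.69 ± 0.55, adjusted p = 0.83). Without wild type at low Pi in Exp 2 it was called higher in bzr1-D (2.1, adjusted p = 0.019 by edgeR, beside 0.887% of features), and without Exp 1 the value was -0.03. With the block and without that Exp 2 library, IPS1 (4.57, adjusted p = 0.00059), AT4 (2.09, adjusted p = 0.0013), PHF1 (0.83, adjusted p = 0.0015) and PHO1;H1 (0.85, adjusted p = 0.0098) were called higher in bzr1-D, beside 5.76% of features. Over all libraries PHO1;H1 overlapped (0.55 ± 0.35), with within-Exp log2 ratios of 0.97 and -0.05. PHT5;1 was higher without overlap by a small amount (0.20 ± 0.13) and NLA lower (-0.21 ± 0.18). IPS1, PHF1, PHT5;1 and G3Pp1 were thus higher in bzr1-D without overlap, beside 16.3% of all features, and NLA lower, beside 18.5%. PHO2 (0.14 ± 0.19) and PHO1 (0.23 ± 0.20) overlapped, and both were lower in bzr1-D in Exp 1 and higher in Exp 2.

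edgeR called 0 of the 9 genes at either Pi supply, beside 1.99% of all features at adequate Pi and 2.12% at low Pi, and DESeq2 also called 0 of the 9, beside 2.84% and 3.07% (4.56% and 5.57% with the block). With the replicate block edgeR called 7.4% and 9.0% of all features and again 0 of the 9. At an unadjusted p under 0.05 in edgeR stood 2 of the 9 at adequate Pi (AT4 and G3Pp1), beside 9.71% of all features, and 3 at low Pi (IPS1, PHF1 and G3Pp1), beside 10.8%. Over both Pi supplies, none of the 9 had its 4 bzr1-D libraries all above or all below its 4 wild-type libraries, beside 5.69% of all features above and 7.47% below. By matched pairs, AT4, PHF1 and G3Pp1 were higher in bzr1-D in all 4, as were 15.8% of all features, and NLA was lower in all 4, as were 15.8%. The leaf and shoot markers were also higher in bzr1-D at adequate Pi (89.3 and 80.0 CPM) than in wild type (56.4 and 46.0 CPM). At low Pi the touch and handling markers were lower in bzr1-D (121 and 124 CPM) than in wild type (159 and 458 CPM). The part of these markers in the differences was not tested.

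**Figure D5:**
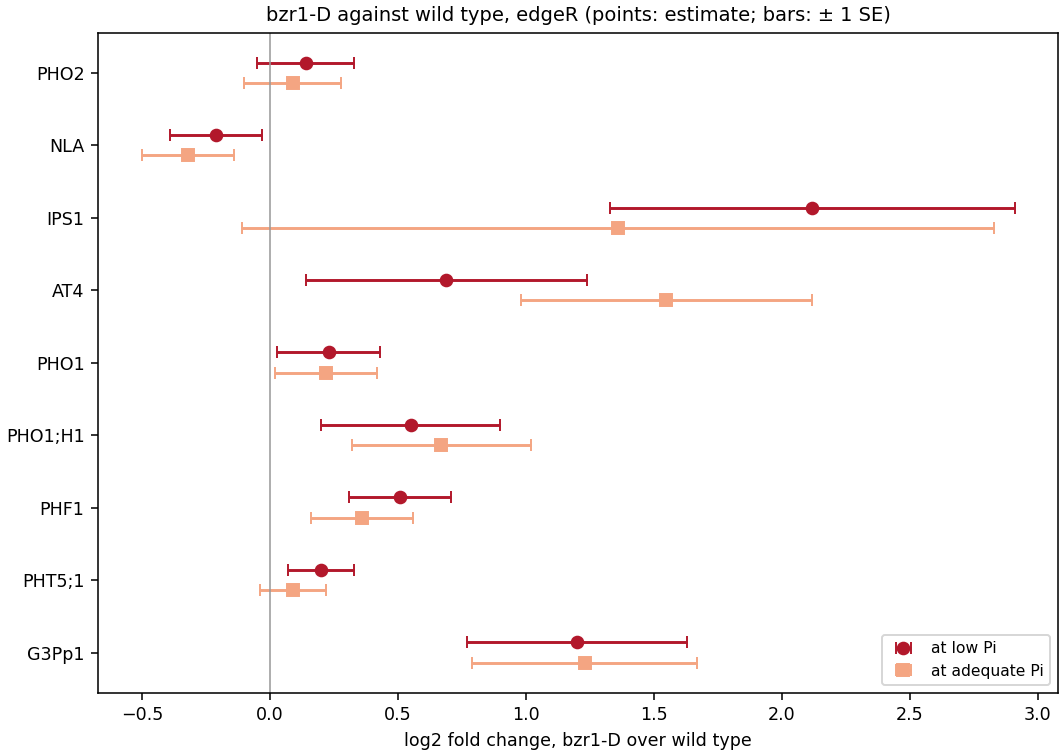
Log2 fold change of the 9 genes in bzr1-D over wild type, fitted by edgeR, with bars of 1 SE, at low Pi (circles, upper) and at adequate Pi (squares, lower). G3Pp1 stood at 1.2 at low Pi and 1.23 at adequate Pi, NLA was below 0 at both, and IPS1 at adequate Pi had the widest bar (SE 1.47).

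The third comparison asked whether the Pi response differed between the genotypes. None of the 9 genes had an unadjusted p under 0.05 in edgeR, beside 0.785% of all features, and edgeR, with or without the block, and DESeq2 each called 0.0% of all features (0.00373% for DESeq2 with the block). The log2 difference of the responses, bzr1-D minus wild type, was 0.76 ± 1.81 (SE) for IPS1 and -0.86 ± 0.79 for AT4, so that for IPS1 a difference of several fold in either direction was within 2 SE. For G3Pp1 it was -0.03 ± 0.60, for PHF1 0.15 ± 0.28, for PHO2 0.05 ± 0.26 and for PHO1 0.01 ± 0.28. It was 0.10 ± 0.25 for NLA, -0.12 ± 0.49 for PHO1;H1 and 0.12 ± 0.18 for PHT5;1. For AT4 the value ran from -1.57 without wild type at low Pi in Exp 1 to 0.56 without Exp 2 of that group.

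Among themselves, 4 genes followed one course over the 8 libraries. On log2(CPM + 0.1), Pearson's r was 0.95 between IPS1 and AT4, 0.95 between IPS1 and PHF1, 0.92 between IPS1 and G3Pp1, 0.92 between AT4 and G3Pp1, 0.92 between AT4 and PHF1 and 0.99 between PHF1 and G3Pp1. NLA ran the other way, with r of -0.59 to IPS1, -0.64 to AT4, -0.81 to PHF1 and -0.82 to G3Pp1. Outside these 4 genes, its r was -0.94 to PHO1;H1 and -0.88 to PHT5;1, which had 0.88 between them. PHO2 also ran against the first 4 genes, with r of -0.6 to IPS1, -0.55 to AT4, -0.62 to PHF1 and -0.62 to G3Pp1. PHO2 and PHO1 went together at 0.79. These 8 points share genotype, Pi supply and Exp number, so that r describes the course only.

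IPS1 had the largest fitted response of the 9 genes, and the 5 features whose course over the 8 libraries was nearest to it among 18820 features with a mean CPM of at least 1 were SPX2 (r = 0.998), AT1G23140 (0.990), RLFS_008535 (0.989), AT1G08310 (0.988) and SQD1 (0.982). SPX2 encodes an intracellular Pi sensor and SQD1 an enzyme of sulfolipid synthesis. SPX2 ran from 16.7 to 39.7 CPM, a far smaller range than that of IPS1. For PHO2 the nearest were AT4G26480 (0.983), AT2G36355 (0.980), SLAH1 (0.975), RD28 (0.974) and Lhca5 (0.972).

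Other genes of the pathway came from 3 lists. Of the 9 PHT1 genes of Pi uptake, 6 were tested, and all 6 had fitted values above 0 at low Pi in both genotypes. Their median log2 fold change was 1.28 in bzr1-D and 1.24 in wild type, beside 0.003 and -0.003 over all features. PHT1;3 had 1 and 0 counts at each Pi supply in wild type, so the sign of its value there (0.15 ± 1.5, SE) carries no weight. edgeR without the block called none of them in a Pi comparison. With the replicate block it called PHT1;8 higher at low Pi in bzr1-D (2.90 ± 0.33, SE, adjusted p = 0.043). Averaged over the genotypes it then called PHT1;8 (3.44 ± 0.40, adjusted p = 0.016) and PHT1;1 (0.78 ± 0.10, adjusted p = 0.027). DESeq2 called PHT1;1 and PHT1;8 in bzr1-D (adjusted p = 0.037 and 7.4e-07) and PHT1;8 in wild type (0.018), and PHT1;1, PHT1;4 and PHT1;8 with the genotypes averaged. The averaged log2 fold change was 3.45 ± 0.44 (SE) for PHT1;8, 2.33 ± 0.54 for PHT1;2 and 1.5 ± 0.32 for PHT1;4 by edgeR.

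Between genotypes, edgeR called PHT1;2, PHT1;3 and PHT1;8 higher in bzr1-D at both Pi supplies, beside 1.99% of all features at adequate Pi and 2.12% at low Pi. PHT1;3 had 129 and 136 counts in bzr1-D at low Pi and 92 and 51 at adequate Pi. Its wild-type counts were 1 and 0 at each supply, so it passed the filter on low counts through bzr1-D alone. In wild type at adequate Pi, PHT1;8 had 0 and 3 counts and PHT1;2 had 3 and 6. The sizes of these differences thus rest on counts near 0. PHT1;2 had 153 and 175 CPM in bzr1-D at low Pi and 0.715 and 4.70 CPM in wild type at low Pi. At adequate Pi it had 92.4 and 67.3 CPM in bzr1-D and 0.152 and 0.270 CPM in wild type. PHT1;1 went the other way, with 191 and 223 CPM in bzr1-D at low Pi and 330.0 and 307 CPM in wild type, and DESeq2 called it lower in bzr1-D at adequate Pi (-0.81 ± 0.21, adjusted p = 0.0053). edgeR with the replicate block called it lower in bzr1-D at adequate Pi (-0.82 ± 0.15, adjusted p = 0.0079) and at low Pi (-0.62 ± 0.14, adjusted p = 0.028). PHT1;1, PHT1;2 and PHT1;3 lie side by side and are close copies, so that their counts may be split between them.

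Of 14 regulators 7 were tested, with a median log2 fold change of 0.06 in bzr1-D and -0.01 in wild type. The SPX genes, sensors that restrain PHR1 when Pi is plentiful, stood apart within the list. DESeq2 called SPX1 (3.33 ± 0.33, SE, adjusted p = 3.3e-20), SPX3 (4.03 ± 0.72, 4e-05) and SPX2 (0.70 ± 0.16, 0.012) higher at low Pi with the genotypes averaged, and edgeR called none of the 7. PHR1 itself had 51.7 and 59.9 CPM in bzr1-D at low Pi and 51.6 and 58.6 CPM at adequate Pi. Its wild-type values were 52.8 and 59.4 CPM at low Pi and 51.1 and 63.5 CPM at adequate Pi. Of 7 homologues of the 9 genes 6 were tested, with a median of 0.06 in bzr1-D and 0.10 in wild type, and neither tool called any. The averaged values were 1.23 ± 0.34 (SE) for G3Pp3, 0.75 ± 0.46 for G3Pp2 and -0.22 ± 0.19 for G3Pp4, beside the 2.14 of G3Pp1 by the same edgeR fit.

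The upstream sequence was searched for P1BS (GNATATNC, both strands read alike), the motif that PHR1 binds. In the 1000 bases before the annotated start it was found in AT4, IPS1, NLA and PHO2, that is in 4 of the 9 genes and in 19.8% of 37897 genes. From 250 bases before the start to 50 after it, it was found in AT4 alone of the 9, and in 6.13% of genes. G3Pp1 and PHF1, which were higher at low Pi, held none in either window, and NLA and PHO2, which were lower in all 4 matched pairs, held 1 each in the longer one. The mimic genes held 2 matches each in the longer window, with first bases at -582 and -548 from the start in IPS1 and at -564 and -26 in AT4. The stretches of the mimic genes carry the motif in capitals, both on the plus strand of TAIR10.1 and 80 bases long. The AT4 stretch holds only the match at -26.
IPS1 upstream at chr3:3050389-3050468: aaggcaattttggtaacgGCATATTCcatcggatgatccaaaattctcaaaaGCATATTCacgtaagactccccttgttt
AT4 upstream at chr5:894502-894581: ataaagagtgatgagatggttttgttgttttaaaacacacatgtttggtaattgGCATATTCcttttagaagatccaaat

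For BZR1, the motif CGTGTG was found on either strand in the 1000 bases before the start of PHO1, PHO1;H1 and PHO2 and in 16.6% of all genes, and CGTGCG in PHO2 and in 4.87%. Neither was found from 250 bases before the start to 50 after it in any of the 9. CANNTG, the general E-box, was found in that shorter window in 6 of the 9 and in 62.9% of all genes. The genes with the largest values in bzr1-D over wild type, AT4, IPS1 and G3Pp1, held neither CGTGTG nor CGTGCG in the 1000 bases. A match describes the letters of this window and says nothing of binding in these roots.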

How the data were processed

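Roots of wild-type and bzr1-D seedlings at low or adequate Pi were sequenced as polyadenylated RNA in 50-base single reads, per the labels' protocols. The authors deposited 1 table of whole-number counts per feature, not normalized. TopHat2 2.0.11, HTSeq 0.6.1, DESeq2 1.2.8 and the TAIR10 build appear in GEO's tool list, per the submitters' processing notes, with no role or setting. How reads of close gene copies were treated was not stated, so those counts may be low or split, and the strand setting was not stated either.

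The 9 genes and the pathway and marker lists were chosen with earlier results of these data known. All 9 genes are named in each comparison. From the pathway lists, genes are named that were called in a reported fit, and the 3 with the largest averaged Pi response. PHR1, SPX4 and the MIR genes are given besides. The 5 nearest features by course are named for PHO2 and for the gene with the largest averaged response. Of the pathway entries, 30 agreed in symbol and locus with RefSeq's annotation of TAIR10.1 and the rest were left out.

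Testing used edgeR 4.0.16 (R 4.3.3): quasi-likelihood test with robust dispersion, TMM scaling, the default filter at a minimum count of 10 and 1 coefficient per group over all 8 libraries, which leaves 4 residual degrees of freedom. P-values were adjusted by Benjamini-Hochberg over 20262 features, and a call is an adjusted p under 0.05. SE is the log2 fold change divided by the square root of F. Alternatives were DESeq2 1.42.0, its size factors, no filter, the Exp number as replicate block, and each library left out. For 2 libraries against 2, an exact permutation test cannot go below p = 0.33. No permutation test was run for any comparison. P-values set a difference against the spread between these libraries, which without the block includes what same-numbered libraries share. The edgeR fit, with and without the block, was tried on simulated counts for the wild-type Pi response only. The DESeq2 fits were not.

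The meaning of the Exp number is not in the labels. Same-numbered libraries deviated together from their group means in all 6 pairs of groups (correlations 0.29 to 0.643), so the numbers were taken to pair the libraries. For the 9 genes, the fit with the replicate block is given where it changes a call or an unadjusted p under 0.05 in edgeR. It is also given where it changes the number of features called. Replicates differed beyond counting error (chi-square per degree of freedom at least 16.9). The strain and tissue entries stand under each other's tag in the labels, and the titles settled the groups.

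Gene coordinates are those of the table (TAIR10), and those of microRNA sites and upstream stretches are of TAIR10.1, whose chromosomes hold all features of the table. Of 32940 features matched by locus, 32932 overlap that locus there.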

Additional observations from a re-analysis of the deposited data

How the results depend on the processing

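The number of features called depended on the test. DESeq2 called 27 in the Pi response of wild type, 20 in that of bzr1-D, 57 averaged, 613 between genotypes at adequate Pi and 647 at low Pi, where edgeR called 0, 0, 0, 404 and 429. The replicate block gave 17, 4, 30, 1500 and 1823 in edgeR and 69, 53, 107, 1009 and 1203 in DESeq2, with 1 for the difference of the Pi responses in DESeq2. Without the filter edgeR called 1 in the averaged response. With each library left out, where the lone library of its group is assumed to vary like the other groups, with or without the block, the counts ran from 0 to 248 in wild type, 0 to 100 in bzr1-D, 173 to 1966 at adequate Pi, 182 to 1943 at low Pi, 0 to 33 for the difference of the responses and 0 to 346 averaged. The block combined with a left-out library or with DESeq2 was chosen after seeing the data. The cause of these shifts was not tested.

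Of 1134 values of the 9 genes under the alternatives, 1014 kept their direction and their side of the threshold, 43 were newly called in the same direction and 77 turned direction. The block turned the difference of the PHO1 responses to -0.004, and DESeq2 with the block to -0.0004. The other turns came with a left-out library, and the log2 ranges of the genes concerned follow. In wild type, PHO1 ran from -0.31 to 0.19 and PHT5;1 from -0.04 to 0.12. In bzr1-D, NLA ran from -0.33 to 0.002, PHO1 from -0.28 to 0.16 and PHO1;H1 from -0.32 to 0.67. Between genotypes at adequate Pi, PHO2 ran from -0.05 to 0.22, IPS1 from -0.09 to 3.3 and PHT5;1 from -0.06 to 0.21. At low Pi, PHO2 ran from -0.12 to 0.39, AT4 from -0.03 to 2.1, PHO1 from -0.03 to 0.46 and PHO1;H1 from -0.03 to 0.95. For the averaged response, PHO1 ran from -0.18 to 0.07. The difference of the responses turned for every gene: PHO2 -0.2 to 0.31, NLA -0.1 to 0.28, IPS1 -1.19 to 3.23, AT4 -1.57 to 0.56, PHO1 -0.24 to 0.25, PHO1;H1 -0.69 to 0.3, PHF1 -0.15 to 0.49, PHT5;1 -0.009 to 0.27 and G3Pp1 -0.6 to 0.82.

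Scaling by DESeq2's size factors or by the total count alone left 70 of 72 group means within 1 SD. The averaged and within-genotype Pi responses of IPS1, AT4, PHF1 and G3Pp1 kept their direction under every alternative run. With 2 libraries per group, and IPS1 at 1 to 16 counts at adequate Pi, moderate differences of the low genes were not detectable.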
